A study of Mus musculus with 99 samples.

Results

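A set of 9 airway and lung genes was followed through 99 heart arrays. They are Scgb1a1, Scgb3a1, Scgb3a2, Bpifa1, Cyp2f2, Cbr2, Ltf, Sftpc and Sftpd, 9 of the 11725 genes named on the array. They were chosen by name as genes of airway and lung, with earlier results of these data known. Their joint variation and the counts of members called below are therefore no independent test. Each gene had 1 probe set, so 9 probe sets carry all the values. Each strain gave 1 array (Affymetrix HT_MG-430A) of total heart RNA, from chow-fed males. There were 11 BXH, 30 BXD, 15 AXB and 13 BXA strains, 28 classical strains, and 1 each of wild-derived CAST/EiJ and of B6cC3-1/KccJ. The BXD arrays include strains named for mutations, BXD24/TyJ-Cep290<rd16>/J beside BXD24/TyJ, and BXD29-Tlr4<lps-2J>/J, and none of these had a member more than 2 log2 units above its median. The classical strains include BTBR T<+> tf/J. The recombinant inbred panels descend from crosses of C57BL/6J, to DBA/2J for BXD, to C3H/HeJ for BXH and to A/J for AXB and BXA, so each of their strains holds fixed segments of both parents. All mice were untreated. The protocol gives an age of 16 weeks for all of them, while their age labels run from 16 to 113 weeks. No strain had a second array, so the errors given here are between strains and include technical spread. The number of arrays limits the precision.

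Club cells line the conducting airways and release secretoglobins, while alveolar type II cells, farther out in the lung, make surfactant. Scgb1a1 is the main secretoglobin of club cells, and Scgb3a1 and Scgb3a2 are related secreted proteins of the airway lining. Bpifa1 is a secreted defence protein of the nose and upper airways, and Ltf encodes the iron-binding protein lactoferrin, which glands and neutrophils release. Cyp2f2 is a cytochrome P450 of club cells that liver also makes, and Cbr2 is a carbonyl reductase abundant in lung. Sftpc encodes surfactant protein C, which only type II cells are known to make in quantity, and Sftpd encodes surfactant protein D, a collectin.

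The values are deposited log2 levels, in which 1 unit is a doubling, and levels near 3 lie close to the floor of the array. A member is called present on an array below where it lay more than 2 log2 units above its own median over the 99 arrays. At least 1 member was present in this sense on 43 arrays, and 56 arrays had none. Heart muscle genes, the check of the labelled tissue, were high on all 99 arrays. None of the 9 measured heart muscle genes rose more than 2 units above its median on any array, and their mean lay between 12.39 and 12.83 where Scgb1a1 and Sftpc were both present and between 12.21 and 12.78 where neither was. In these bulk samples fewer cells of a type and less RNA per cell cannot be told apart. Transcripts of other organs also reached some arrays. On 32 arrays at least 1 in 4 of the listed genes of liver, fast skeletal muscle, thymus or squamous epithelium lay more than 2 units above their medians.

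**Figure D1:**
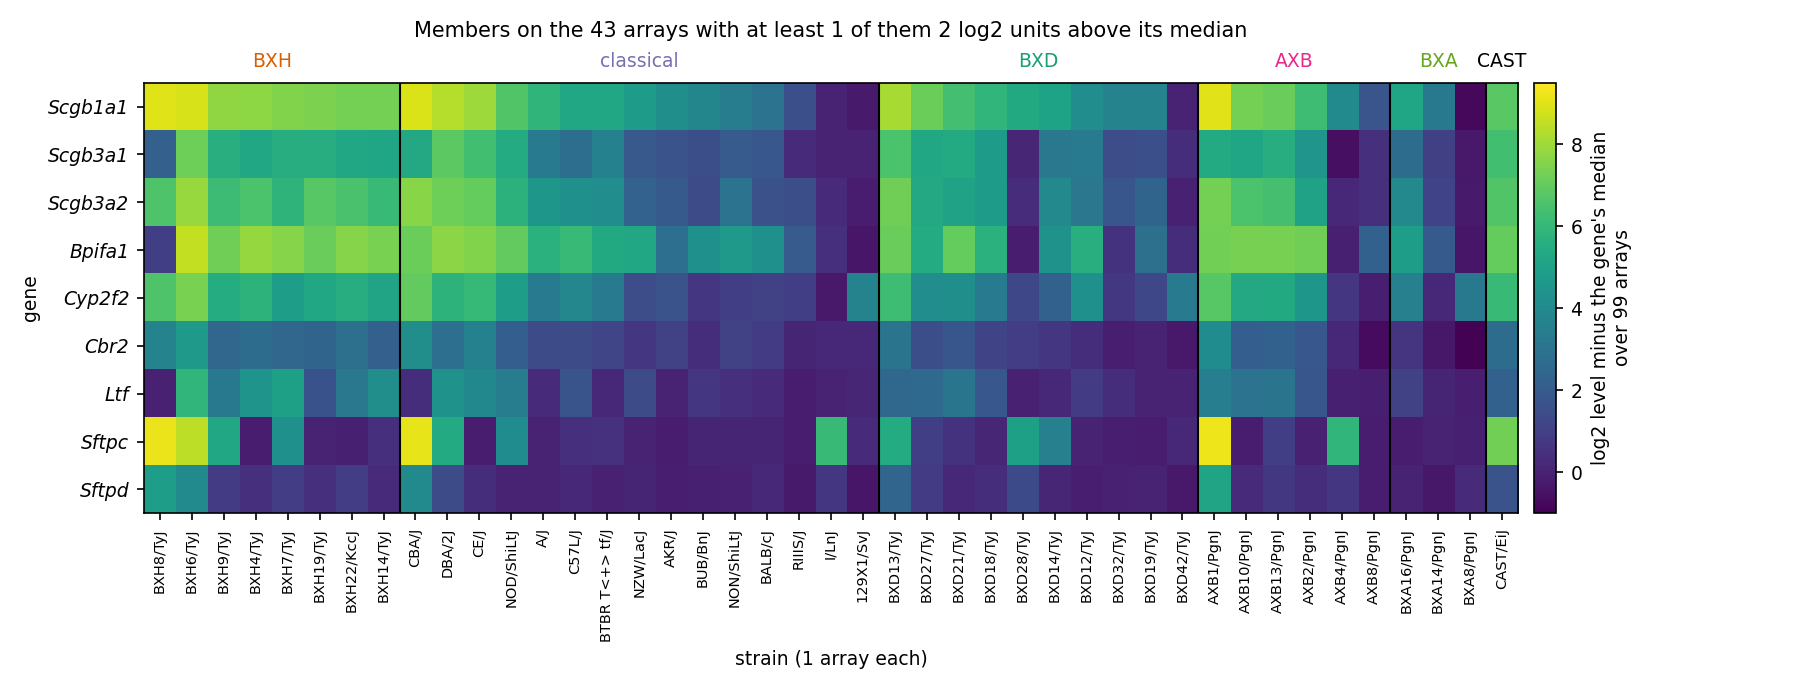
Heat map of the 9 genes (rows) on the 43 arrays with at least 1 member present (columns, 1 strain each, ordered within a panel by Scgb1a1). Colour is the log2 level minus the gene's median over 99 arrays. Scgb1a1 stands high on 37 columns and Sftpc on 14, and BXH8/TyJ, AXB4/PgnJ and BXD28/TyJ have Sftpc with little Bpifa1.

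Scgb1a1 was the member present on the most arrays. Its level was 3.02 on the lowest array, 4.01 on the median array and 13.04 on the highest, AXB1/PgnJ. It was present on 37 arrays, 24 of them without Sftpc and 13 with it. The arrays fell into a high and a low class with a gap between them, but the low class was graded. The highest array below the limit, AXB8/PgnJ, had 5.76, and the lowest above it, BALB/cJ, had 7.0, so limits of 1 and 3 units gave 40 and 36 arrays in place of 37. BXA25/PgnJ had 5.07 and RIIIS/J 5.59. Over the 62 arrays below the limit, Scgb1a1 still followed Bpifa1 (Pearson's r 0.876, Spearman's rho 0.67, permutation adjusted p = 7.2e-05 and 0.00036). That r was 0.766 without the 2 arrays farthest from the median of Scgb1a1. With Cyp2f2, Cbr2, Ltf, Sftpc and Sftpd it was not called there. An array below the limit can thus still hold a low level of airway transcripts. Leaving out the 32 arrays with other-organ transcripts, 67 arrays were left and Scgb1a1 was present on 21 of them.

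The other secretory genes followed Scgb1a1 and seldom appeared without it. Scgb3a1 ran from 3.30 through a median of 3.98 to 11.18 and was present on 28 arrays. Scgb3a2 ran from 3.17 through 3.64 to 11.50 and was present on 30. Both peaked on BXH6/TyJ, and neither was present on any array without Scgb1a1. They did not pass their limits on 9 and 7 of the 37 Scgb1a1 arrays, where Scgb1a1 lay between 7.0 and 9.39. All 5 genes Scgb1a1, Scgb3a1, Scgb3a2, Bpifa1 and Cyp2f2 were present together on 26 arrays. Levels of different probe sets are not set against each other here, so a gene that passes its limit on fewer arrays may only be measured less sensitively.

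Within the 37 Scgb1a1 arrays the club cell genes rose and fell together. Scgb1a1 correlated with Cbr2 at Pearson's r 0.933 and Spearman's rho 0.946, with Cyp2f2 at 0.939 and 0.929 and with Scgb3a2 at 0.921 and 0.928. Each had an unadjusted permutation p = 1e-05, the smallest that 100000 permutations can give, and an adjusted p = 1.89e-05 over the 36 pairs of members. Without the 2 arrays farthest from the median of Scgb1a1, r was 0.939, 0.93 and 0.909. Within panels, Scgb1a1 and Cbr2 had r = 0.925 over 12 classical strains and 0.961 over 9 BXD, both called (in these panel values, a pair is called by the adjusted p of r). Over 8 BXH r was 0.891, not called (permutation adjusted p = 0.0611), and 0.163 without the 2 farthest arrays. With Cyp2f2 r was 0.969 in classical strains and 0.78 in BXD, both called, though rho in BXD was not (0.633, permutation adjusted p = 0.106), and 0.903 in BXH, not called (permutation adjusted p = 0.0558). With Scgb3a2 it was 0.961 and 0.789, both called, and 0.64 in BXH, not called (permutation adjusted p = 0.23). In BXH the Cbr2 value rests on BXH6/TyJ and BXH8/TyJ, since the other 6 carriers lay within 11.31 to 11.75.

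Bpifa1, the upper airway gene, was present on 34 arrays. Its level ran from 3.11 through a median of 3.94 to 12.49 on BXH6/TyJ. It was present on 32 of the 37 Scgb1a1 arrays and on RIIIS/J and AXB8/PgnJ besides. On these 2 arrays Bpifa1 was 5.97 and 6.21 and Scgb1a1 was 5.59 and 5.76, both close to their limits. The 5 Scgb1a1 arrays that lacked Bpifa1 were BXH8/TyJ, AXB4/PgnJ, BXD28/TyJ, BXD32/TyJ and BXA14/PgnJ. On BXA14/PgnJ Bpifa1 was 5.91, just under its limit of 5.94, and on BXH8/TyJ it was 4.89 beside the second highest Scgb1a1 of all arrays, 12.98. Within the 37 arrays Bpifa1 followed Scgb3a1 (r 0.899, rho 0.852, permutation p = 1e-05, adjusted p = 1.89e-05, r 0.866 without the 2 farthest) and followed Scgb1a1 less tightly (r 0.629, rho 0.741). With Scgb3a1 it had r = 0.91 in classical strains, 0.936 in BXD and 0.934 in BXH, the last being -0.608 without the 2 farthest arrays. With Scgb1a1 it had r = 0.88, 0.616 and -0.544, and the BXH value was 0.177 without BXH6/TyJ and BXH8/TyJ, the 2 farthest. The difference between these correlations was not tested.

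Ltf was present on 16 arrays, and every one of them also had Bpifa1 and Scgb1a1. Its level ran from 2.97 through a median of 3.58 to 9.5 on BXH6/TyJ. Ltf followed Bpifa1 within the 37 Scgb1a1 arrays (r 0.779, rho 0.899, permutation p = 1e-05, adjusted p = 1.89e-05). The same pair had r = 0.748 in 12 classical strains, 0.799 in 9 BXD and 0.832 in 8 BXH, and r = 0.785 over all 37 without the 2 farthest. CBA/J departed from it, with Bpifa1 at 11.09 and Ltf at 3.94. BXH8/TyJ had neither, with Ltf at 3.54. Over all 99 arrays, which form classes and therefore get no test, the genes most like Ltf by Spearman's rho were Bpifa1 (0.726), Cyp2f2 (0.721), Cyp2a5 and Scgb1a1 (both 0.715) and Cbr2 (0.703). Cyp2a5 is a cytochrome P450 of liver and airway.

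Neutrophils store lactoferrin, and their other granule genes were set beside Ltf. Camp, a cathelicidin, and Ngp, a neutrophil granule protein, were present on 0 of the 16 Ltf arrays, where Ngp reached at most 4.0 and Camp at most 3.25. Of the 11 neutrophil genes measured, 1 was present on each of 3 Ltf arrays and 0 on the other 13. These were S100a9 on BXH14/TyJ (5.60) and NOD/ShiLtJ (5.80), and Lcn2 on BXD27/TyJ (7.62), and the part of neutrophil transcripts in the Ltf level was not tested. BXH2/TyJ had the highest Ngp (7.45), S100a8 (7.62) and S100a9 (7.94) of all arrays, with Bpifa1 at 3.30. Ltf was 4.90 there, under its limit of 5.58 but the highest among the 61 arrays with neither Scgb1a1 nor Sftpc. Another airway defence gene, Bpifb1, was between 4.16 and 8.27 on the 16 Ltf arrays. Bpifb1 was present on 14 arrays, Reg3g, an antibacterial lectin, on 12 and Wfdc2, an airway protease inhibitor, on 14, all of them among the 37 Scgb1a1 arrays.

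The 250 bases before the RefSeq start sites of Scgb3a1, Bpifa1 and Ltf are shown (build GRCm38.p6, each 5′ to 3′ along the gene). These 3 genes rose together over the 37 Scgb1a1 arrays, but not they alone. Scgb3a1 had r = 0.82 with Ltf, and also 0.925 with Scgb3a2 and 0.869 with Cyp2f2. Capitals mark matches to 2 short motifs searched on both strands, the core of forkhead factors such as FOXA, TGTTTNC (on the other strand GNAAACA), and the core of the lung factor NKX2-1, CTCAAG (on the other strand CTTGAG).
Scgb3a1, chr11:49663345-49663594, plus strand: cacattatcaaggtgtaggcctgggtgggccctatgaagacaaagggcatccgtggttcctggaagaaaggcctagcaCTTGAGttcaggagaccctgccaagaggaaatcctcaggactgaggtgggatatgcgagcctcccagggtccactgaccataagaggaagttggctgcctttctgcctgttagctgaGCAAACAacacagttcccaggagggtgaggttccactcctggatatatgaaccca
Bpifa1, chr2:154142630-154142879, plus strand: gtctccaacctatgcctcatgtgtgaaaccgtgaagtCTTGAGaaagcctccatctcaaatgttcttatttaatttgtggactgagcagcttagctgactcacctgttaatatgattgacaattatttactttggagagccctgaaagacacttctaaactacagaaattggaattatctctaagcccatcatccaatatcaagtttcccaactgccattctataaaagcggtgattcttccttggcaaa
Ltf, chr9:111019042-111019291, plus strand: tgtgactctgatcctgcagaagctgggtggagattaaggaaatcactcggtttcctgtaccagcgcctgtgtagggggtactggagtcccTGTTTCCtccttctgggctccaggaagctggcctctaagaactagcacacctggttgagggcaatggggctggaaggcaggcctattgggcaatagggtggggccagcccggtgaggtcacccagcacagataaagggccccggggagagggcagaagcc
Scgb3a1 held both motifs, its forkhead match starting at base -55 and its NKX2-1 match at -172. Bpifa1 held the NKX2-1 core at -213 and Ltf the forkhead core at -160. Of the other members in the table, Cbr2 held 1 forkhead match at -229 and Cyp2f2 held neither motif. In windows of the same length the forkhead core occurred in 17.8% and the NKX2-1 core in 13.3% of 32851 promoters, and the 2 motifs do not overlap each other in these sequences. A match describes letters and shows no binding. Promoters of Scgb1a1, Scgb3a2, Sftpc and Sftpd are named only.

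Of 13 listed transcription factors of secretory cells, 1 was present on any array, Cebpa at 6.78 on BXH6/TyJ, against a median of 4.41. Nkx2-1 ran from 3.11 to 3.79 and Foxa2 from 2.98 to 3.73, close to the floor of the array. Foxa1 ran from 2.96 to 4.35, with a median of 3.17 and its highest value on BXH6/TyJ too. Gata6 (median 7.40) and Cebpd (median 7.33) had measurable levels, with no array more than 2 units above the median.

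Sftpc, the alveolar gene, was present on fewer arrays than Scgb1a1, on 14 against 37. Its level ran from 2.67 through a median of 3.07 to 12.29 on AXB1/PgnJ. Its count of arrays was the same under limits of 2 and 3 units alike. No array lay between 4.59 and 6.63. Scgb1a1 was also present on 13 of these 14 arrays. The other was I/LnJ, with Sftpc at 9.14 and Scgb1a1 at 4.06, Bpifa1 at 4.4 and Cyp2f2 at 3.38, and with Sftpd at 4.20. With the same 32 arrays left out, 6 arrays had both genes, 15 had Scgb1a1 alone and I/LnJ still had Sftpc alone.

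**Figure D2:**
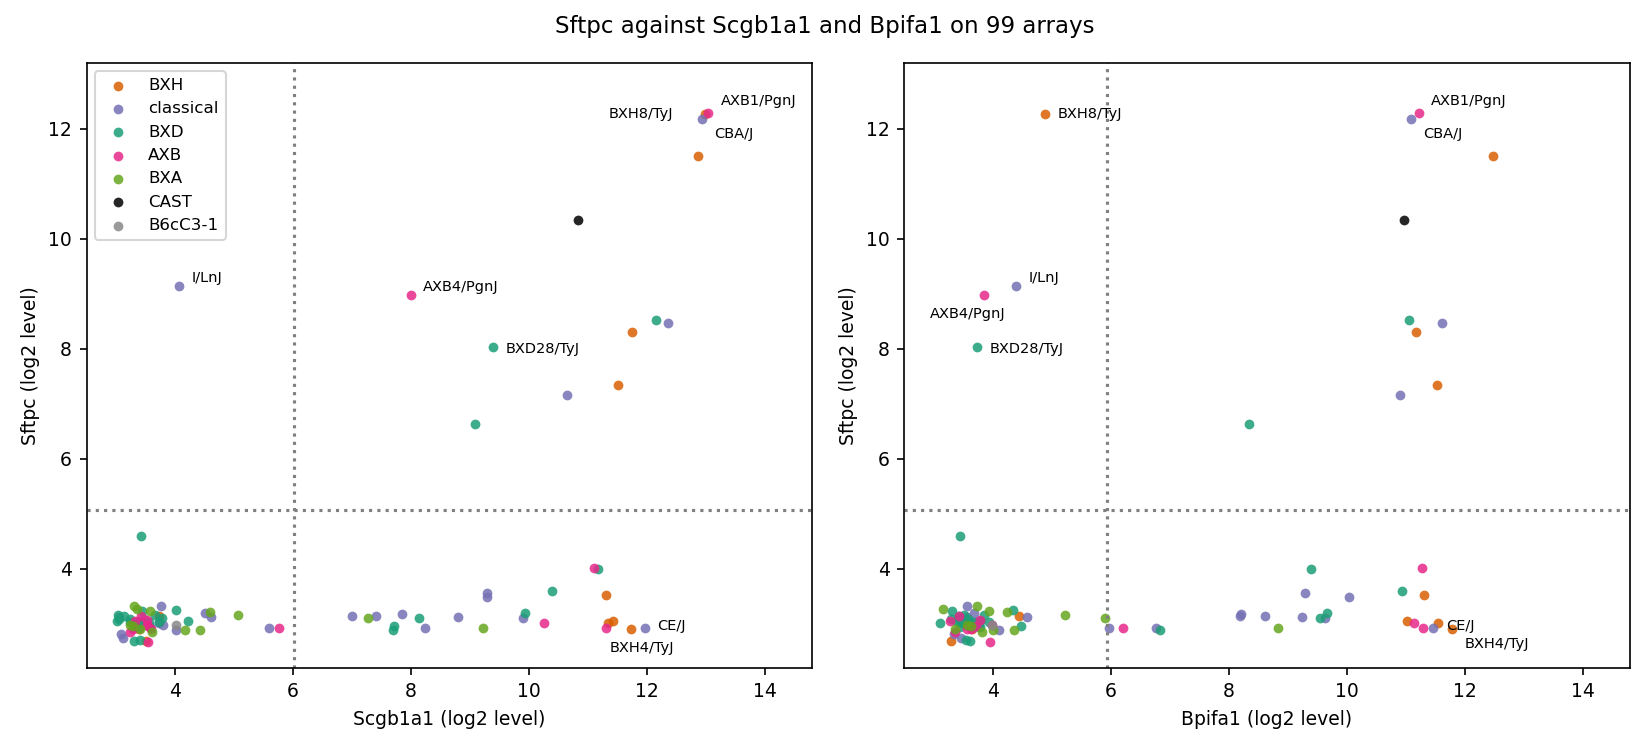
Sftpc (vertical axis, log2 level) against Scgb1a1 (left) and Bpifa1 (right, both log2 level), 1 point per array, coloured by panel. Dotted lines mark 2 log2 units above each gene's median. On 24 arrays Scgb1a1 passes its line and Sftpc does not, as on CE/J and BXH4/TyJ, while I/LnJ has Sftpc alone and 4 arrays have Sftpc without Bpifa1.

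Club cell genes could therefore be high with Sftpc at the floor. CE/J had Scgb1a1 at 11.96, Bpifa1 at 11.47, Cyp2f2 at 9.70 and Ltf at 7.47, with Sftpc at 2.93. BXH4/TyJ had Scgb1a1 at 11.72 and Bpifa1 at 11.79, with Sftpc at 2.90. Over the 24 arrays with Scgb1a1 and no Sftpc, Sftpc stayed between 2.89 and 4.02 while Scgb1a1 ran from 7.0 to 11.96. BXH8/TyJ lay at the other end, with Sftpc at 12.27, Scgb1a1 at 12.98, Scgb3a2 at 10.25 and Cyp2f2 at 10.29, but Scgb3a1 at 6.22, Bpifa1 at 4.89 and Ltf at 3.54. The arrays of AXB4/PgnJ and BXD28/TyJ had Sftpc at 8.98 and 8.04 and Scgb1a1 at 7.99 and 9.39, with Bpifa1 at 3.85 and 3.74 and Scgb3a2 at 3.87 and 3.98.

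Since Sftpc forms 2 classes within the 37 Scgb1a1 arrays, its correlations are given within the 13 arrays that have both. There Sftpc followed Scgb1a1 (r 0.634, rho 0.742, permutation adjusted p = 0.0355 for r and 0.012 for rho over 36 pairs, r 0.695 without the 2 farthest) and Cbr2 (r 0.746, rho 0.753, permutation adjusted p = 0.00882). With Bpifa1 the correlation was near 0 (r 0.061, rho 0.187, permutation adjusted p = 0.877), as it was with Ltf (r -0.045, rho -0.06, permutation adjusted p = 0.899) and Scgb3a1 (r 0.13, rho 0.022, permutation adjusted p = 0.753). Bpifa1 and Ltf followed each other on the same 13 arrays (r 0.794, rho 0.907, permutation adjusted p = 0.00132). Of the 13 arrays, Bpifa1 was present on 10, Ltf on 8 and Scgb3a1 on 11. The correlations of these 3 genes therefore mix arrays with and without them. The 13 arrays come from BXH, BXD, AXB, classical strains and CAST/EiJ, and no panel holds enough of them for a value of its own. Whether these correlations differ from each other was not tested.

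Sftpd was present on 5 arrays, BXH6/TyJ (7.56), BXH8/TyJ (8.40), CBA/J (7.59), BXD13/TyJ (5.99) and AXB1/PgnJ (8.68), all of which had Sftpc. Its median was 3.55 and its lowest value 2.98. On the 13 arrays with Scgb1a1 and Sftpc, Sftpd followed Sftpc (r 0.931, rho 0.885, permutation adjusted p = 0.00036, r 0.889 without the 2 farthest). There it also followed Scgb1a1 (r 0.755, rho 0.874), Cyp2f2 (r 0.671, rho 0.835) and Cbr2 (r 0.813, rho 0.874). Their permutation adjusted p for r were 0.00882, 0.0217 and 0.0033. With Scgb3a2 only rho was called (0.786), and Bpifa1 (r 0.107), Ltf (r 0.039) and Scgb3a1 (r 0.191) were not called. On the 24 Scgb1a1 arrays without Sftpc, Sftpd lay between 3.24 and 4.47 and followed Scgb1a1 too (r 0.771, rho 0.808, permutation adjusted p = 6.26e-05). All 9 members were present on 3 arrays, BXH6/TyJ, BXD13/TyJ and AXB1/PgnJ.

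Some other distal lung genes marked the arrays with the most Sftpc. Sftpa1, another surfactant protein, was present on 8 arrays, all among the 14 Sftpc arrays. Cxcl15, a lung chemokine, Slc34a2, the phosphate transporter of type II cells, and Ager, a receptor abundant on alveolar type I cells, were each present on the same 4 arrays, AXB1/PgnJ, BXH6/TyJ, BXH8/TyJ and CBA/J. These 4 had the highest Sftpc of all, between 11.51 and 12.29. On CAST/EiJ, next at 10.34, Ager was 3.38, Cxcl15 3.48 and Slc34a2 4.09, and Sftpa1 was 6.59. Of the 11 other type II genes measured 7 were present on any array, and of the 8 type I genes 4. Scd1 and Igfbp2, the widest-ranging of these 2 lists, were present on 14 and 6 arrays, of which 2 and 3 had Sftpc. Abca3, Muc1, Lyz1, Hopx, Pdpn and Emp2 were present on none. Over the 37 Scgb1a1 arrays the genes most like Sftpc by Spearman's rho were Sftpa1 (0.788), Ager (0.74), Slc34a2 (0.697), Cldn18 (0.674), an alveolar tight junction gene, Sftpd (0.653) and Cxcl15 (0.642).

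**Figure D3:**
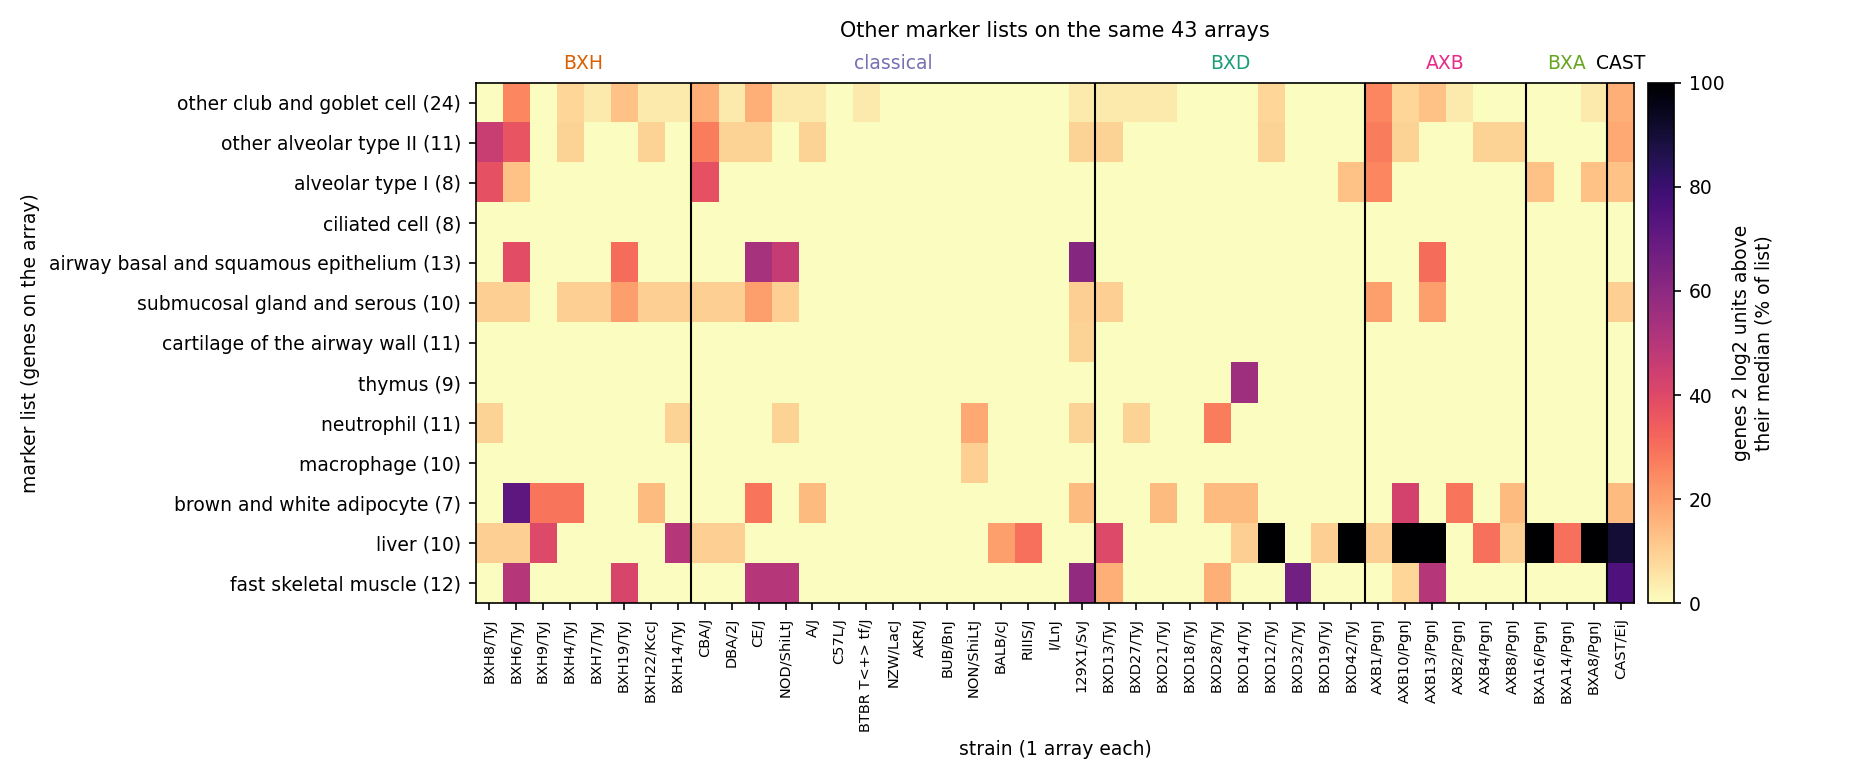
Share of each marker list (rows, number of its genes on the array in brackets) more than 2 log2 units above the median, on the 43 arrays with a member present (columns). The row of other type II genes is darkest on BXH8/TyJ, BXH6/TyJ, CBA/J and AXB1/PgnJ, the ciliated row is empty, and squamous and fast muscle genes mark BXH6/TyJ too, while the liver row is darkest on other arrays.

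Ciliated cells share the airway lining with club cells. None of the 8 ciliated cell genes on the array was present, by the limit of 2 units, on any of the 99 arrays. Of the 3 tested between panels, 1 was higher in BXH than in AXB and BXA, and 0 than in BXD. The ciliary gene Tekt1, between 3.06 and 3.83, was among the 10 genes most like Sftpc over the 37 Scgb1a1 arrays (rho 0.579). Rsph1, another ciliary gene, was highest on BXH6/TyJ (4.17), and Tubb4b, a tubulin, on AXB1/PgnJ (9.34, median 8.49). None of the 4 genes of thyroid, a tissue that shares NKX2-1 with lung, was present on any array. 1 of 11 airway cartilage genes was present, on 129X1/SvJ alone among the 43 arrays. The epithelial keratin genes Krt4 and Krt13 and the cornified envelope genes Lor and Krtdap were each present on 7 arrays, 5 of them with Scgb1a1 and 2 with Sftpc. On CE/J, which had Krt4 at 11.34, the club cell genes were high, but 129X1/SvJ had the highest Krt4 (11.80) with Scgb1a1 at 3.76.

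Cyp2f2 was present on 30 arrays, and 3 of these lacked Scgb1a1. Its level ran from 2.82 through a median of 3.68 to 11.06 on BXH6/TyJ. On BXD42/TyJ Cyp2f2 was 7.05 with Scgb1a1 at 4.01, and on BXA8/PgnJ it was 6.92 with Scgb1a1 at 3.24. Both arrays had all 10 measured liver genes present, with the serum albumin gene Alb at 11.79 and 11.89 and Cyp2a5 at 7.79 and 8.22. The third, 129X1/SvJ, had Cyp2f2 at 7.38 with Alb at 3.30 and 0 liver genes, and with 8 of 13 squamous and 7 of 12 fast muscle genes present. The part of these other transcripts in the Cyp2f2 level was not tested.

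**Figure D4:**
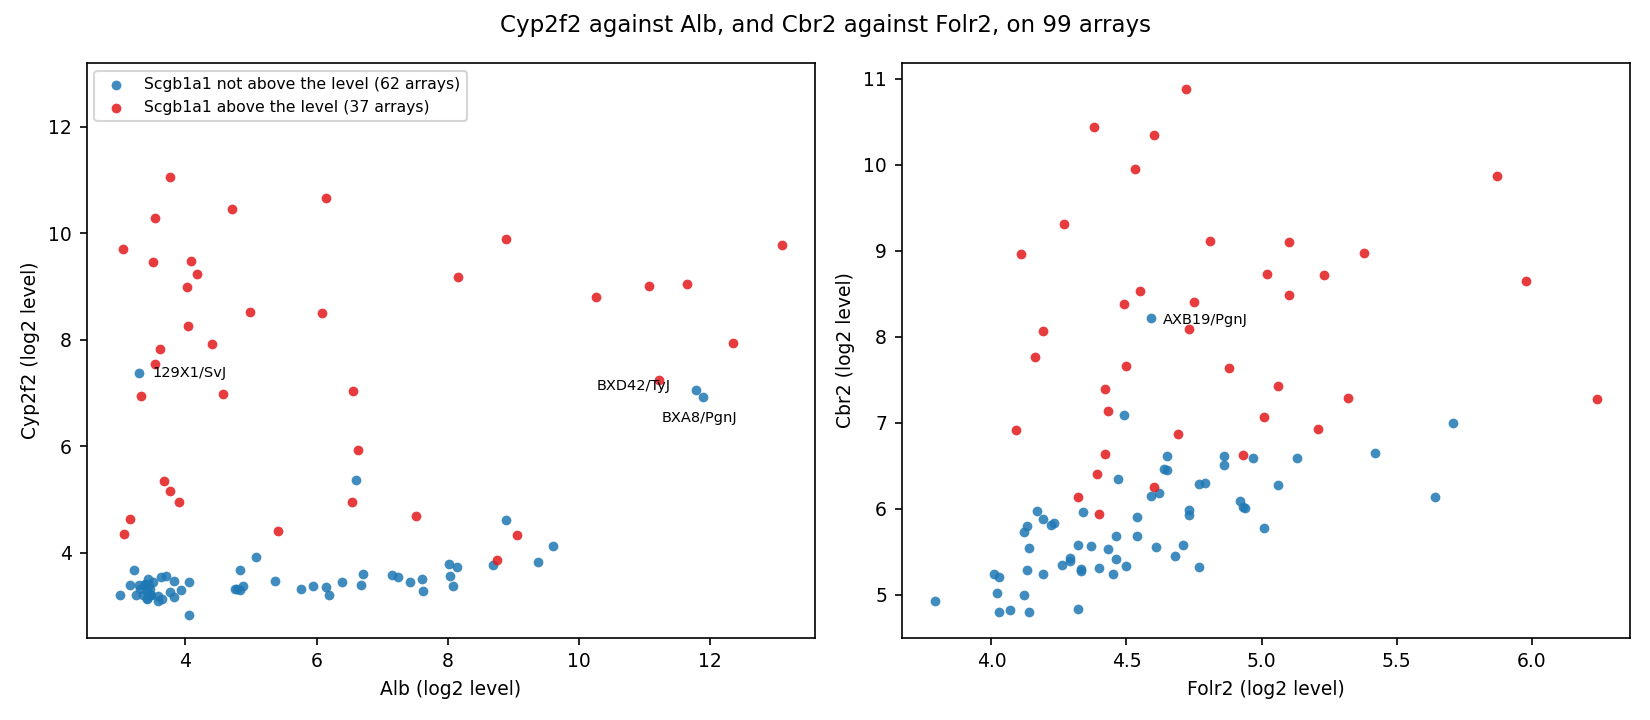
Cyp2f2 against Alb (left) and Cbr2 against the macrophage gene Folr2 (right), log2 levels, 1 point per array, red where Scgb1a1 is present (37 arrays) and blue elsewhere (62). Cyp2f2 is high without Scgb1a1 on BXD42/TyJ, BXA8/PgnJ and 129X1/SvJ, and Cbr2 rises with Folr2 among the blue points.

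Cbr2 differed from the other members in having a measurable level on every array. It ran from 4.8 through a median of 6.25 to 10.88 on BXH6/TyJ. It was present on 17 arrays, all with Scgb1a1, but this count rests on the limit, being 27 at 1 unit and 6 at 3 units. AXB19/PgnJ lay just below the limit of 8.25, with Cbr2 at 8.22 and Scgb1a1 at 3.23. That array had 6 of 9 thymus genes present, with Rag1, a recombinase of developing lymphocytes, at 9.47, and 4 liver genes. Its near-isogenic relatives AXB19a/PgnJ and AXB19b/PgnJ had Cbr2 at 5.34 and 5.83.

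On the 56 arrays without any member present, Cbr2 followed macrophage genes. The most alike by Spearman's rho were Folr2, a folate receptor of tissue macrophages (0.76), the lysosomal gene Cd68 (0.733), the mannose receptor Mrc1 (0.702) and the complement gene C1qa (0.697). Pearson's r was 0.644 for Folr2, 0.701 for Cd68 and 0.606 for Mrc1, each with a permutation p = 1e-05, and 0.778, 0.673 and 0.764 without the 2 arrays farthest from the median of Cbr2. These genes were picked as the most alike among all genes, so the p describes no independent test. Over all 99 arrays the genes most like Cbr2 were Scgb1a1 (0.752), Cyp2f2 (0.748) and Scgb3a2 (0.737), and 4 steps below them Tmem176a, a myeloid membrane gene (0.695).

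The members were then compared between strain panels, to see whether the panels carried them unequally. Scgb1a1 was present on 72.7% of BXH arrays (8 of 11), against 42.9% of classical (12 of 28), 30.0% of BXD (9 of 30), 33.3% of AXB (5 of 15) and 15.4% of BXA arrays (2 of 13). Sftpc was present on 4 BXH, 4 classical, 3 BXD, 2 AXB and 0 BXA arrays. The levels within a panel had no middle ground in BXH. The 8 carriers had Scgb1a1 between 11.31 and 12.98, and BXH20/KccJ, BXH10/TyJ and BXH2/TyJ had 3.72, 3.38 and 3.51.

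**Figure D5:**
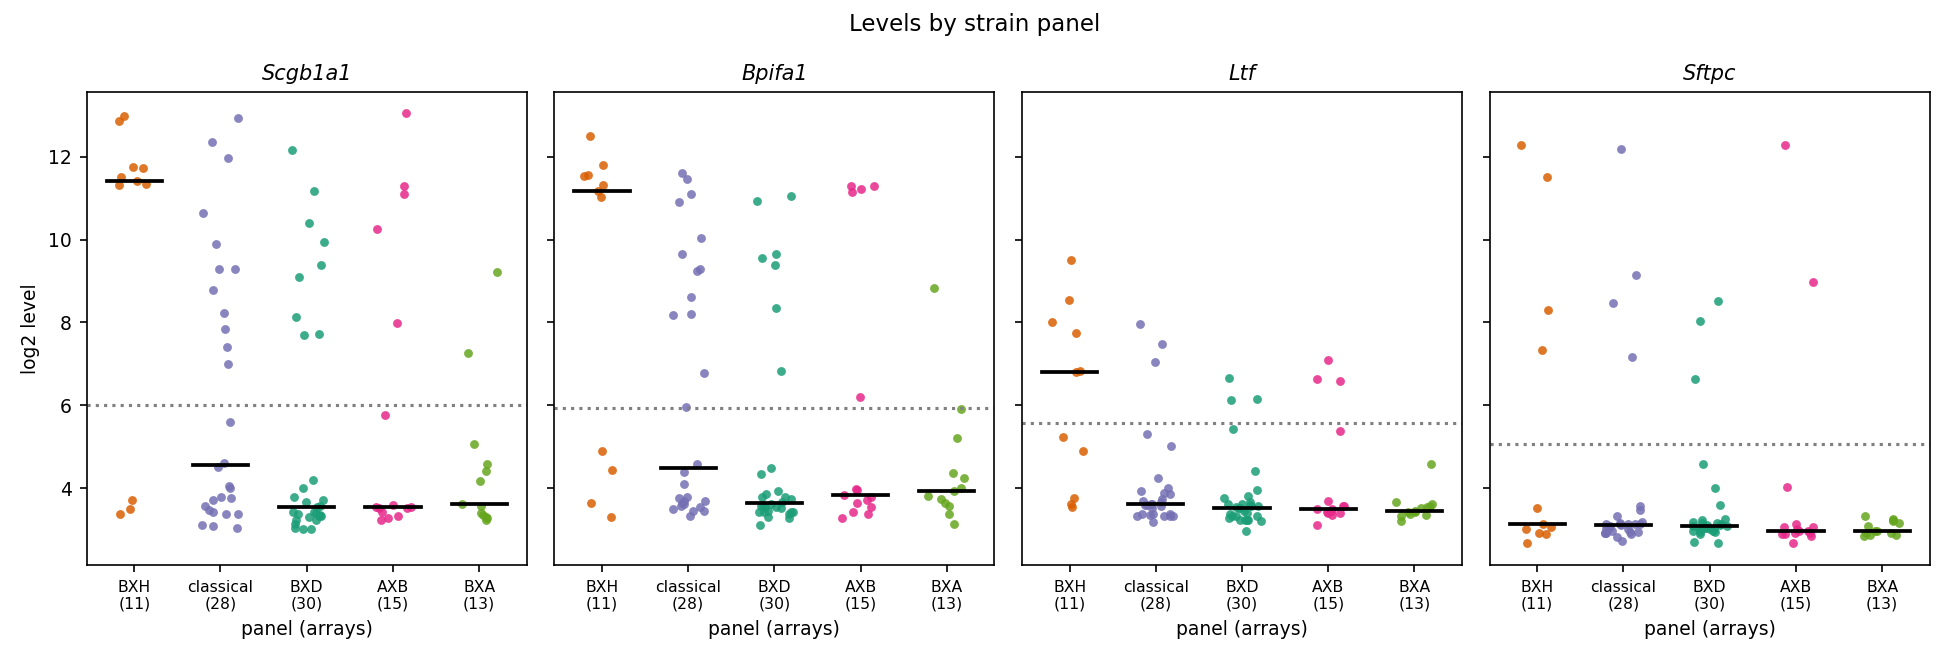
Log2 levels of Scgb1a1, Bpifa1, Ltf and Sftpc by panel, 1 point per array with sideways jitter only for legibility. Black bars are panel medians and dotted lines mark 2 log2 units above the median of all 99 arrays. The BXH median of Scgb1a1 is 11.42 against 3.56 in BXD, and the BXH median of Sftpc is 3.15.

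BXH hearts had higher levels of 8 of the 9 members than BXD hearts, over 11 BXH strains and 29 BXD families, in which near-isogenic strains were averaged. The members largely rose on the same arrays. Counts of members, here and in the comparisons below, are therefore not counts of separate results. In limma, with Benjamini-Hochberg adjustment over 7513 genes, 4.3% of all genes were called higher in BXH at an adjusted p under 0.05 and 6.34% lower, 10.6% in all. Scgb1a1 was 9.59 ± 3.93 (SD) in BXH and 5.30 ± 3.00 in BXD, a difference of 4.29 (SE 1.11, 19.5-fold, adjusted p = 0.00963). No BXH array lay near that BXH mean, which falls between the carriers and the other arrays. The difference and fold therefore also reflect the share of carriers in each panel. The medians were 11.42 in BXH and 3.55 over the BXD families. Cbr2 was 8.44 ± 1.45 and 6.20 ± 1.01, a difference of 2.24 (SE 0.39, adjusted p = 0.000206), and Ltf 6.22 ± 2.12 and 3.86 ± 0.96, a difference of 2.37 (SE 0.46, adjusted p = 0.000775). Bpifa1 differed by 3.83 (SE 1.01), Scgb3a2 by 3.64, Cyp2f2 by 3.25 and Scgb3a1 by 2.75, with adjusted p from 0.00366 to 0.0191. Sftpd was at the edge, with a difference of 1.00 (SE 0.34, adjusted p = 0.0486), and lost its call in 32 of 40 fits that left out 1 family. Sftpc differed by 1.89 (SE 0.77) and was not called (adjusted p = 0.11). The groups overlapped for every member, since at least 3 BXH arrays lacked each of them. Of the 11 BXH arrays, Bpifa1 was present on 7, Ltf on 6, Sftpc on 4 and Sftpd on 2. Without BXH6/TyJ the Scgb3a1 difference was 2.4 and lost its call (adjusted p = 0.0537).

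Against AXB and BXA together, 26 families, 7 of 9 members were higher in BXH, where 3.18% of all genes were called higher and 3.34% lower, 6.52% in all. This comparison uses the same BXH arrays as the last. Scgb1a1 differed by 4.13 (SE 1.14, limma adjusted p = 0.0227), Cbr2 by 2.36 (SE 0.47, adjusted p = 0.0017) and Ltf by 2.27 (SE 0.51, adjusted p = 0.00507). Bpifa1 differed by 3.53 (SE 1.08, adjusted p = 0.0418) and lost its call in 19 of 37 fits without 1 family. Scgb1a1 lost it without BXH6/TyJ (adjusted p = 0.0511). Sftpc (1.87, SE 0.92) and Sftpd (0.90, SE 0.43) were not called, with adjusted p = 0.238 and 0.229, and without AXB1/PgnJ Sftpd was called with a difference of 1.09.

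Both BXH results changed when arrays with markers of another organ were left out, a choice made after the data were seen. With 7 BXH strains against 19 BXD families 1 of the 9 members, Cbr2, was called. Of all 7513 genes 134 were called, against 799 with all arrays. With 7 against 16 AXB and BXA families 0 members were called, and 98 of all genes, against 490 with all arrays. The Scgb1a1 differences were then 3.25 (limma adjusted p = 0.225) and 3.47 (adjusted p = 0.237). BXH6/TyJ, BXH9/TyJ, BXH14/TyJ and BXH19/TyJ were the BXH arrays left out, and all 4 carried Scgb1a1. Each sample's title is a number of unstated meaning. Title numbers run from 3 to 394 in BXH and from 473 to 683 in the other recombinant panels. Panel and title number cannot be told apart in these comparisons. The age label rises with the title number, so it cannot be told apart from panel here either.

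Other airway genes and macrophage genes moved beside the members. Of 14 tested other club and goblet cell genes, 7 were higher in BXH than in BXD and 2 than in AXB and BXA, with median differences of 0.56 and 0.42 against -0.02 and -0.01 over all tested genes. The 4 tested genes of the gland list were all higher than in BXD, and 2 of them than in AXB and BXA. Lyz2 and Slpi are among these 4 and do not mark glands alone. Lyz2 followed Cbr2 on the 56 arrays without any member present (rho 0.551), as macrophage genes did. Slpi was highest on 129X1/SvJ (10.78), which lacked Scgb1a1. Among 10 macrophage genes, 7 were higher in BXH than in BXD and 9 than in AXB and BXA. Their part in the Cbr2 difference was not tested. Of 3 tested neutrophil genes 2 were higher in BXH in each comparison, and their part in the Ltf difference was not tested. None of the 4 tested other type II cell genes, Scd1, Fabp5, Lpcat1 and Abca3, was called in either comparison. These 4 had medians of 6.14 or more over all arrays. Sftpa1, Cxcl15 and Slc34a2 (medians 3.12, 3.22 and 3.36) were too dim to be among the tested genes. Of the liver genes, 0 of 8 were called and 1 of 8 had a difference above 0.

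Against the 28 classical strains, limma called 0 of the 9 members, where 0.293% of all genes were called, 0.0799% higher and 0.213% lower in BXH. All 9 differences were above 0, from 0.94 for Sftpd to 3.30 for Scgb1a1 (SE 1.17, adjusted p = 0.237), and 8 members had an unadjusted p under 0.05, which 11.3% of all genes had. Over the 4 BXH and 23 classical arrays whose title numbers overlap, Scgb1a1 differed by 0.942, Sftpc by 0.07 and Sftpd by 0.001, and Ltf by 2.04, none called. Over all arrays Ltf came nearest (2.10, SE 0.53, adjusted p = 0.0587) and was called with array weights (adjusted p = 0.0405). A rank permutation test on each member, without adjustment, gave 6 members a p under 0.05, with the smallest for Ltf (permutation p = 0.00235). This test was run on the members only, so no share of all genes can be set beside that count.

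No member was called between the other panels. Between 29 BXD and 26 AXB and BXA families limma called 0 of 9 members, though 14.6% of all genes were called, 8.59% higher and 6.04% lower in BXD. Differences ran from -0.30 (Bpifa1, SE 0.71) to 0.26 (Scgb3a1, SE 0.54), and 0 members, against 28.7% of all genes, had an unadjusted p under 0.05 in limma, nor any member in the rank permutation test. Between 13 AXB and 13 BXA families, crosses of the same parents in opposite directions, limma called 0 of 9 members and 0 of all genes (0%), while 10.5% of all genes had an unadjusted p under 0.05. All 9 differences of means lay above 0, from 0.55 for Sftpd to 1.93 for Scgb1a1 (SE 1.09, adjusted p = 0.55). Differences of medians were below 0 for Scgb1a1 (-0.018), Scgb3a1 (-0.003), Bpifa1 (-0.143) and Cyp2f2 (-0.195), and above 0 for the other members. Ltf had an unadjusted p under 0.05 in limma (0.82, SE 0.40, adjusted p = 0.474).

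The parent strains did not divide as their panels did. C57BL/6J and C3H/HeJ, the parents of BXH, had Scgb1a1 at 3.39 and 3.80 and no member present, while 8 of 11 BXH strains carried it at 11.31 or more. DBA/2J had Scgb1a1 at 12.36, Bpifa1 at 11.61, Ltf at 7.96 and Sftpc at 8.47, and A/J had Scgb1a1 at 9.90, Bpifa1 at 9.64, Ltf at 3.88 and Sftpc at 3.11. The near-isogenic strains AXB19, AXB19a and AXB19b had Scgb1a1 at 3.23, 3.54 and 3.52, and BXD24/TyJ and BXD24/TyJ-Cep290<rd16>/J had 3.72 and 4.21, so these families give no case of relatives that differ in it. With 1 array per strain, strain and array cannot be told apart.

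Arrays with low title numbers carried the members more often. Scgb1a1 was present on 6 of 7 arrays numbered up to 34 (85.7%), 9 of 18 from 40 to 240 (50.0%), 6 of 16 from 281 to 456 (37.5%) and 16 of 58 from 473 to 683 (27.6%). The 7 arrays of the first range are all BXH. Within panels the relation was not called. Pearson's r of Scgb1a1 with title number was -0.01 in 28 classical strains (permutation adjusted p = 0.988), -0.021 in 30 BXD (0.965), -0.12 in 15 AXB (0.923), -0.529 in 13 BXA (0.234) and -0.657 in 11 BXH (0.139), adjusted over the 18 relations of the 9 members to title number and RNA quality. The BXH value became 0.049 without the 2 arrays with the most distant title numbers, BXH10/TyJ and BXH2/TyJ, and rests on them. The Gapdh 3′ minus 5′ difference, a sign of RNA quality, had an r with Scgb1a1 of -0.158 in classical strains, -0.107 in BXD, 0.327 in BXH, 0.165 in AXB and 0.467 in BXA, none called.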

How the data were processed

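Per the labels, oligo-dT primed and biotin-labelled cRNA from heart RNA was hybridised to HT_MG-430A arrays. Values of 22416 probe sets (89 controls) are log2 levels as the authors deposited them, made with GCOS and RMA per the submitters' processing notes. RMA corrects background and normalises by quantiles, so arrays share a distribution (medians 3.97 to 4.07). Signal over background was not analysed here.

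Strains were grouped by name. The age label runs from 16 to 113 weeks against 16 weeks in the protocol and was not used. Of the probe sets, 17783 had 1 gene symbol, 284 several and 4349 none here, and the brightest stood for a gene. The test kept 7513 genes whose mean passed 3.59 (the 40th percentile). All 9 members passed, but the medians of Sftpc, Sftpd and Ltf lie below it, so they passed through their high arrays. No arrays held identical values.

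Panels were compared with limma 3.58.1 (lmFit, eBayes, only the compared groups, no covariate, near-isogenic strains averaged) in R 4.3.3, with Benjamini-Hochberg adjustment and calls under 0.05. Tested on simulated data, it recovered 98% of genes shifted by 2 log2 units for BXH against BXD. The shifted genes were drawn from all tested genes, with normal noise at each gene's own spread. This gives no power for the members, whose spread was wide (Scgb1a1 SD 3.93 in BXH). Correlations used 100000 two-sided permutations (Python 3.11.15, numpy 2.4.6, scipy 1.17.1, pandas 2.3.3, matplotlib 3.10.9). Named genes were all members, the 10 genes most like Scgb1a1, Sftpc, Ltf and Cbr2, and the widest-ranging genes of the marker lists. Others (Rag1, C1qa) and the named likeness on subsets of arrays were chosen after their values were seen. Members and lists were chosen with earlier results of these data known. Alternatives tried were the filter, probe set averaging, near-isogenic strains kept, centring, array weights, a Gapdh covariate, rank tests, title ranges, other limits, leaving out families, and leaving out arrays with markers of another organ. Promoters came from RefSeq (5 of 9 members matched).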

Additional observations from a re-analysis of the deposited data

Results flagged for a closer look

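The array of the wild-derived strain CAST/EiJ entered no comparison and carried 8 of the 9 members more than 2 log2 units above their medians. Scgb1a1 was 10.83, Scgb3a1 10.29, Scgb3a2 10.28, Bpifa1 10.97, Cyp2f2 9.78, Cbr2 8.96, Ltf 5.83 and Sftpc 10.34, while Sftpd, at 5.23, was not above its limit. The same array had 9 of 10 liver and 9 of 12 fast skeletal muscle genes present, with the highest Alb of all arrays at 13.09. The part of the liver transcripts in its Cyp2f2 level was not tested.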

How the results depend on the processing

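No paired analysis was possible because the labels give no replicate numbers shared between groups. Each member had 1 probe set, so the other probe sets planned as an alternative were not run. Counts of arrays within 1.5 times under limits of 1 and 3 units held for 7 members, and not for Cbr2 (27 and 6 against 17) or, at 1 unit, Sftpd (8 against 5). Leaving out arrays with markers of another organ gave 1 member and 134 genes called for BXH against BXD, 0 members and 98 genes against AXB and BXA, 0 genes against the classical strains, and 623 genes for BXD against AXB and BXA. These fits have fewer arrays. Leaving out 1 family gave 6 to 8 members and 564 to 938 genes for BXH against BXD, and 5 to 8 members and 369 to 572 genes for BXH against AXB and BXA. Array weights called 1 member and 58 genes for BXH against the classical strains, and title numbers shared by both groups left 4 BXH and 23 classical arrays and 2 genes. The Gapdh covariate gave 513 genes for BXH against BXD (799 without it) and 405 for BXD against AXB and BXA (1099 without it), where lower and upper title ranges gave 512 and 170. The upper title range gave 1 gene for AXB against BXA. The causes were not tested. With no filter, Sftpd lost its call against BXD (limma adjusted p = 0.0687) and Bpifa1 against AXB and BXA (0.0593).

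Small differences between the other panels changed sign. For BXD against AXB and BXA these were Scgb3a2 (0.016) and Sftpc (0.024) with each strain kept, Scgb3a2 with the Gapdh covariate (0.083), Cyp2f2 (0.026), Sftpc (0.587) and Sftpd (0.185) in the lower title range, and Cbr2 (-0.187) and Ltf (0.07) in the upper. Without arrays with markers of another organ Scgb1a1 (0.216), Scgb3a2 (0.14), Cyp2f2 (0.119) and Ltf (0.019) did, and as differences of medians Scgb3a2 (0.065), Ltf (0.016) and Sftpc (0.083). For AXB against BXA the medians differed by -0.018 for Scgb1a1, -0.003 for Scgb3a1, -0.143 for Bpifa1 and -0.195 for Cyp2f2. Of 36 pairs of members, 31 were called over the 37 Scgb1a1 arrays and 6 within BXH, 30 within classical strains and 22 within BXD. Of 18 relations to title number and RNA quality, 9 were called over all arrays and 0 within BXH, classical, BXD, AXB or BXA strains.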
